A study of Bos taurus with 94 samples.

Results

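The libraries labelled Mammary and Mammary_gland were compared, 1 library each, over the 8080 of 24616 genes that reached 10 FPKM or more in either of them. FPKM counts the sequenced fragments of a gene relative to its transcript length and to the size of the library. The series holds 94 RNA sequencing libraries of total RNA from snap-frozen cattle tissues, with 1 library for most tissue labels. The mammary libraries, like all others, carry the labels Hereford for breed and adult for age. The labels give no animal, lactation stage or dissection site for either. A further library, Mammary_gland_fat, and 91 libraries with no mammary label served as background. With 1 library a label there is no replicate error and no test, so each difference below is one between these libraries.

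The mammary gland is a skin-derived gland in which milk-secreting epithelial cells line alveoli, surrounded by contractile myoepithelial cells, connective tissue, vessels, immune cells and fat. During lactation the epithelium devotes much of its messenger RNA to a few secreted proteins, the caseins and whey proteins such as alpha-lactalbumin and beta-lactoglobulin, under the control of prolactin from the anterior pituitary and of other hormones. Outside lactation these transcripts are scarce and stroma makes up more of the tissue. The identifiers in the files come without names, and 0 of the 24616 identifiers matched a symbol in the gene table used. A milk protein share by gene name was therefore not computed, and the labels could not be checked against named markers of mammary epithelium. Genes were grouped instead by the libraries in which they were abundant, and at most 2 identifiers are given in each direction.

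Both mammary libraries carried a small group of genes that other tissues nearly lacked, and the Mammary library carried it at far higher levels. A gene was counted as restricted to a mammary library when it reached 10 FPKM there and was at least 4-fold above each of the 91 libraries with no mammary label, on the log2(FPKM + 1) scale. This rule did not use the other mammary libraries. It gave 28 genes in Mammary and 12 in Mammary_gland, of which 9 were the same genes. Those 9 genes made up 42.0% of all FPKM in Mammary and 2.47% in Mammary_gland, a 17-fold difference in share. After quantile normalization the shares were 16.8% and 2.93%, a 5.75-fold difference. All of them were listed at 0 in Mammary_gland_fat. Over the 91 other libraries their summed share was at most 0.0345%, in Infundibulum_contralateral_CL, and it was 0 in 42 of them.

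The 9 genes did not stand in the same proportions in the 2 libraries. The most abundant gene of the Mammary library had 235483 FPKM there and 630 in Mammary_gland, a 374-fold difference, and was at most 97.3 FPKM elsewhere, in Jejunum. It alone took 23.1% of the Mammary library and 0.0915% of Mammary_gland. The next gene had 128763 FPKM in Mammary and 2672 in Mammary_gland, or 12.6% and 0.388% of the libraries. Together these genes formed most of the group in Mammary, where the first held 54.9% of its FPKM and the next 30.04%. In Mammary_gland they held 3.70% and 15.7%.

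The following genes were closer between the libraries. The third gene by its level in Mammary had 20321 FPKM there and 3336 in Mammary_gland, and the fourth had 12469 and 4261. The fifth had 12225 and 1134 FPKM, and the sixth 11669 and 4694. The sixth was the leading gene of the group in Mammary_gland, with 27.6% of its FPKM there and 2.72% in Mammary. The seventh had 7647 and 185 FPKM. The last members of the group were low in both libraries and ran the other way, with 31.5 FPKM in Mammary against 58.0 in Mammary_gland and 21.4 against 53.3. Of the 9 genes, 5 were at least 4-fold higher in Mammary and 0 were at least 4-fold higher in Mammary_gland, beside 5.4% and 24.3% of all genes compared. The fourth and sixth were 2.93-fold and 2.49-fold higher in Mammary. Without the leading 2 genes, the group held 6.31% of the FPKM in Mammary and 1.99% in Mammary_gland, a 3.17-fold difference in share.

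**Figure D1:**
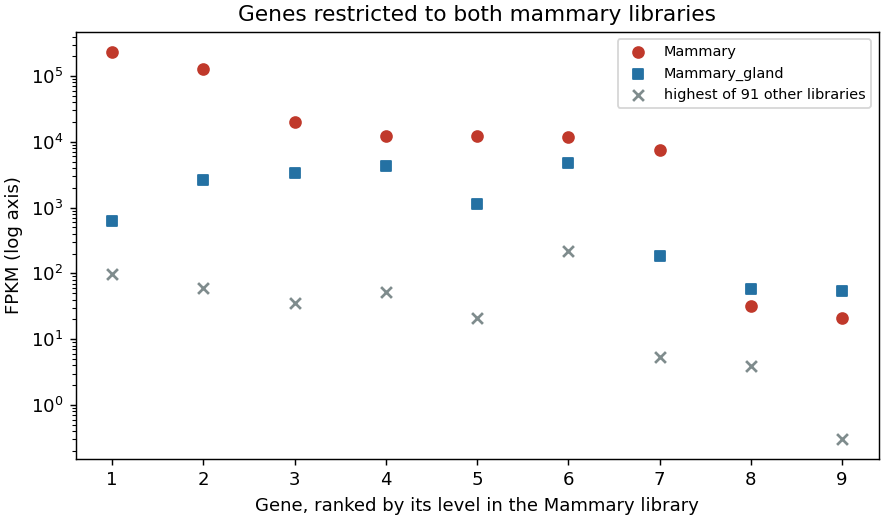
FPKM (log axis) of the 9 genes restricted to both mammary libraries, ranked by their level in the Mammary library (circles), with Mammary_gland (squares) and the highest of 91 other libraries (crosses). The first gene stands at 235483 FPKM in Mammary and 630 in Mammary_gland, the sixth at 11669 and 4694, and each gene is above every other library in both.

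Other genes met the rule in 1 mammary library only. In Mammary_gland there were 3, with 1950, 1050 and 29.5 FPKM against 22.3, 1.86 and 0 in Mammary. In Mammary there were 19, from 10.02 to 2851 FPKM, which together held 0.914% of its FPKM and 0.0441% of that of Mammary_gland. These genes met the rule in Mammary and not in Mammary_gland, so their lower level in Mammary_gland largely follows from the choice. Of the 19, 6 were at 10 FPKM or more in Mammary_gland, with a highest level of 98.4 FPKM. A median above 10 FPKM over the 91 other libraries was found for 4 of the 19, which were thus detected widely.

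The Mammary library also held abundant transcripts of pituitary and pineal tissue, and Mammary_gland did not. Markers of 21 tissues were chosen without the mammary-labelled libraries, as genes whose median in the tissue was 10 FPKM or more and at least 4-fold above the 90th percentile of the remaining libraries. The tissue made of Anterior_pituitary, Posterior_pituitary, SME_pituitary_stalk_median_eminence and Pineal_Gland had 109 markers. Since the median was taken over these libraries, a gene high in Pineal_Gland alone could not be a marker. The set therefore does not tell pituitary from pineal transcripts. The pituitary secretes prolactin, growth hormone and other peptide hormones into the blood, and the pineal gland makes melatonin. Of the 109 markers, 71 were at 10 FPKM or more in Mammary, 9 in Mammary_gland and 3 in Mammary_gland_fat. The 4 pituitary and pineal libraries had 86 to 105 at that level, and the other 87 libraries a median of 5 and a highest value of 59, in Diencephalon. The median marker had 19.97 FPKM in Mammary and 0 in Mammary_gland, where 56 markers were listed at 0 against 3 in Mammary. The markers summed to 9.80% of the FPKM in Mammary and 0.0268% in Mammary_gland. In the pituitary and pineal libraries they summed to between 6.88% and 49.6%.

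The genes furthest toward Mammary were 2 of these markers. ENSBTAG00000017220 had 52177 FPKM in Mammary and was listed at 0 in Mammary_gland and Mammary_gland_fat. Its highest levels elsewhere were 110316 FPKM in Pineal_Gland, 85309 in Anterior_pituitary and 38310 in Posterior_pituitary, followed by 645 in Midbrain, and it was listed at 0 in 46 of the 91 libraries. ENSBTAG00000015274 had 24726 FPKM in Mammary and was also listed at 0 in the other mammary-labelled libraries. It reached 277851 FPKM in Anterior_pituitary, 120475 in Posterior_pituitary and 60548 in Pineal_Gland, and 2127 in Ascending_colon. Their log2 differences were 15.67 and 14.59, values that depend on the added 1 because Mammary_gland was at 0.

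Across the 109 markers, the levels in Mammary ran in proportion to those in Pineal_Gland. For the 103 markers at 10 FPKM or more in Pineal_Gland, the Mammary level was a median of 37.3% of the Pineal_Gland level, with quartiles of 27.1% and 43.4%, and it lay between 25% and 100% for 78 of them. The median share of the Anterior_pituitary level was 43.1%, with wider quartiles of 23.9% and 66.0%. Posterior_pituitary gave 50.5% (25.4% to 80.6%) and SME_pituitary_stalk_median_eminence 41.2% (14.9% to 76.3%). Pearson's r of log2(FPKM + 1) across the 109 markers was 0.97 with Pineal_Gland, 0.92 with Anterior_pituitary, 0.88 with Posterior_pituitary and 0.42 with SME_pituitary_stalk_median_eminence. These markers were chosen for being high in those 4 libraries, and genes are not independent replicates. The labels and files do not say how pituitary or pineal transcripts came to be in the Mammary library, and their part in the other differences was not tested. Leaving them out of the FPKM totals gave the 9 shared mammary genes 46.6% of Mammary and 2.47% of Mammary_gland.

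**Figure D2:**
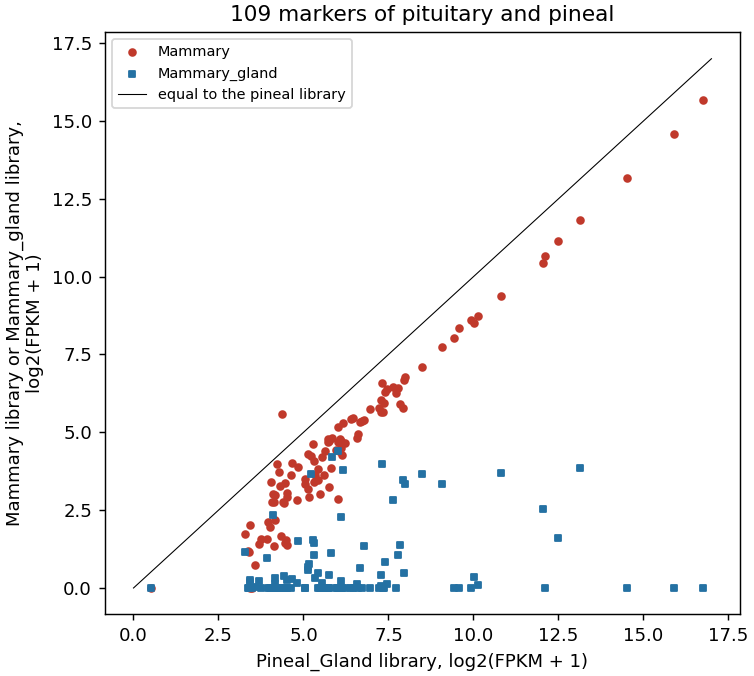
Level of the 109 pituitary and pineal markers in Mammary (circles) and Mammary_gland (squares) against Pineal_Gland, as log2(FPKM + 1); each point is a gene and the line marks equal levels. The Mammary points follow a band below the line (median 37.3% of the Pineal_Gland level), and 56 of the 109 Mammary_gland points lie at 0.

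Over all 8080 genes, 436 (5.4%) were at least 4-fold higher in Mammary and 1963 (24.3%) at least 4-fold higher in Mammary_gland. The median log2 difference, Mammary minus Mammary_gland, was -1.10, and 6513 genes lay below 0. This shift came with a difference in composition, since 50.9% of the Mammary FPKM, the highest share of the 94 libraries, and 13.0% of the Mammary_gland FPKM fell to the top 10 genes. The FPKM totals were 1020391 and 689038, and read depth is unknown. The balance of directions rested on the scaling. With the median ratio set to 1, 798 genes were higher in Mammary and 899 in Mammary_gland, and quantile normalization gave 817 and 722. Rescaling to equal totals gave 305 and 3449, and rescaling without the 20 most abundant genes of each library gave 589 and 1286. The genes nearest the threshold had log2 differences of 2.004 and 1.999 on the Mammary side and -2.0002 and -1.9991 on the other.

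**Figure D3:**
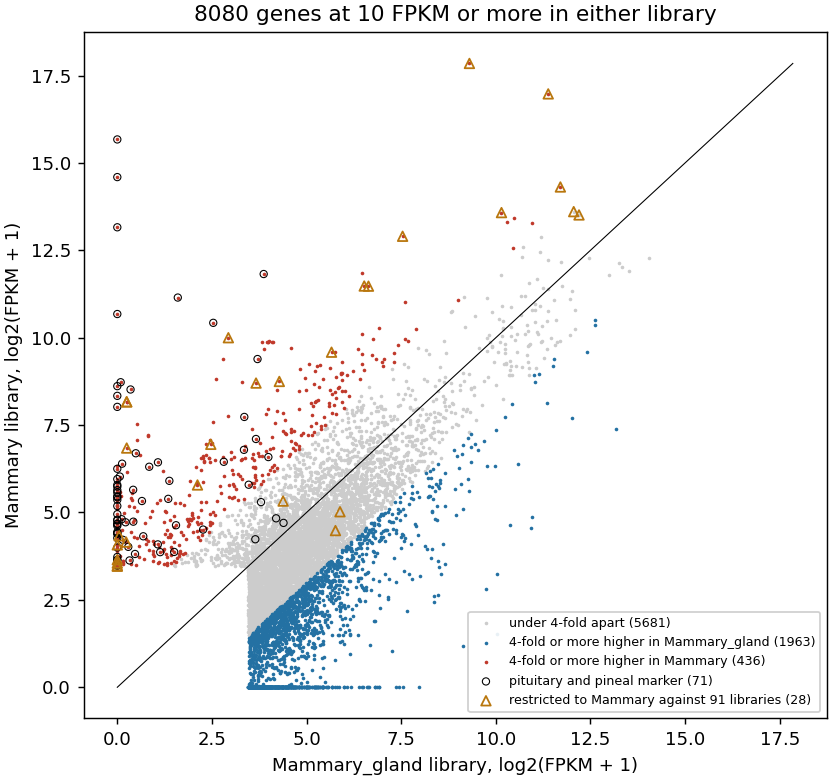
Levels of 8080 genes in Mammary and Mammary_gland, as log2(FPKM + 1), with the line of equal levels; red and blue points are at least 4-fold apart, open circles are pituitary and pineal markers and triangles are genes restricted to Mammary against 91 libraries. The bulk of genes lies below the line (median difference -1.10), and 33 of the 71 pituitary and pineal markers shown are at 0 in Mammary_gland, where the highest is at 19.98 FPKM.

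**Figure D4:**
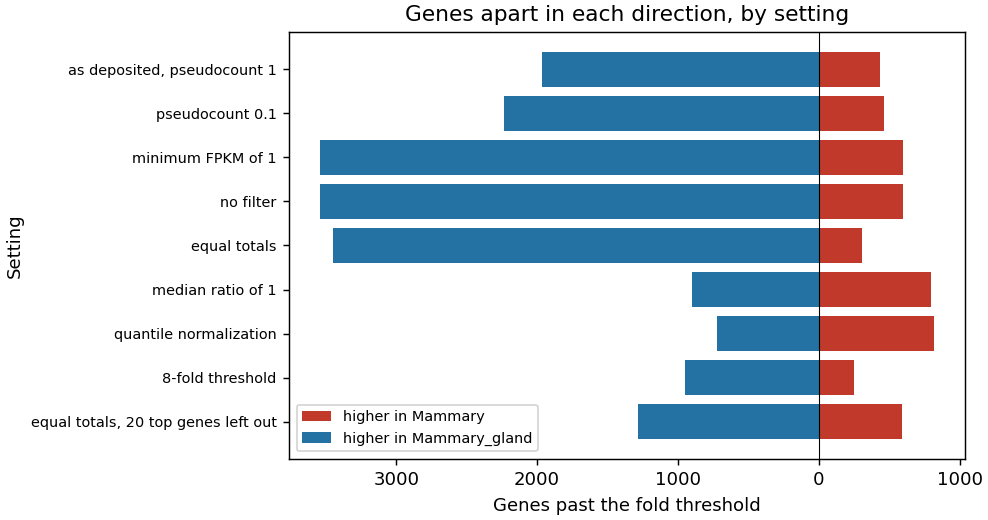
Number of genes at least 4-fold (or 8-fold, where stated) higher in Mammary (right of 0) and in Mammary_gland (left of 0) under 9 settings. The excess toward Mammary_gland (436 against 1963 as deposited) is near balance with the median ratio set to 1 (798 against 899) and turns with quantile normalization (817 against 722).

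The 436 genes higher in Mammary had a median of 64.2 FPKM there, 3.84 in Mammary_gland and 4.81 in Mammary_gland_fat. They held 60.5% of the FPKM in Mammary and 3.16% in Mammary_gland. Over the 91 other libraries their share had a median of 3.101% and was highest in Anterior_pituitary, at 51.6%. In Mammary_gland 63 of them were listed at 0, and 160 were at 10 FPKM or more. By the library with the highest level among the 91, a brain region led 124 genes (28.4%), against 10.5% of all genes compared. Pituitary and pineal libraries led 74 (16.97%, against 4.08%) and oviduct libraries 78 (17.9%, against 12.1%), and lymphoid and blood libraries led 3 (0.688%, against 10.9%). Pituitary, pineal or brain markers made up 113 of the 436 genes (25.9%), against 167 of all 8080 genes (2.07%), and 323 were in neither marker set. Most of these markers entered the comparison through Mammary. All 71 compared pituitary and pineal markers and 100 of 118 compared brain markers were at 10 FPKM or more there. In Mammary_gland 9 and 45 were, so the excess partly follows from the filter.

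Brain markers were present in Mammary to a lesser degree than pituitary and pineal markers. The sets overlapped. Of the genes at least 4-fold higher in Mammary, 68 were brain markers, and 22 of these were also pituitary and pineal markers. Of 444 brain markers, 100 were at 10 FPKM or more in Mammary, 45 in Mammary_gland and 44 in Mammary_gland_fat. The brain regions had 243 to 435 of them and the pituitary and pineal libraries 152 to 252. The median over libraries outside the brain was 38. Summed brain markers made up 0.641% of the FPKM in Mammary and 0.271% in Mammary_gland, and 161 and 145 were listed at 0.

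A further 300 of the genes higher in Mammary were neither restricted to it nor markers of pituitary, pineal or brain. Their median was 83.7 FPKM in Mammary, 7.69 in Mammary_gland and 11.7 in Mammary_gland_fat. Among the 91 libraries the median of these genes was highest in Pons (36.6 FPKM), Pineal_Gland (30.05) and isthmus_ipsilateral_CL (28.5), and lowest in Chorid_plexus (2.62). The library isthmus_ipsilateral_CL had the highest level for 43 of them and Pons for 41. Of the 300, 157 had a median of 10 FPKM or more over the 91 libraries, and 112 were higher in Mammary than in any of the 91. These counts and those by library were not set against all genes compared.

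The 1963 genes higher in Mammary_gland were mostly of moderate level. Their median was 21.5 FPKM in Mammary_gland, 14.1 in Mammary_gland_fat and 1.92 in Mammary. They held 21.6% of the FPKM in Mammary_gland, 13.6% in Mammary_gland_fat, a median of 13.7% over the 91 other libraries and 1.76% in Mammary. In 1901 of the 1963 genes at least 1 of the 91 libraries reached the Mammary_gland level, compared with 299 of the 436 genes higher in Mammary. The 436 include 23 genes restricted to Mammary and the 1963 include 3 restricted to Mammary_gland, which by rule none of the 91 reaches. No share over all genes compared is set beside these counts, and each group was chosen for its high level in that library. In Mammary 525 were listed at 0 and 695 were under 1 FPKM. Of all 24616 genes, 13458 were listed at 0 in Mammary and 8442 in Mammary_gland. An exact 0 may be a failed estimate, so low detection and low expression in Mammary cannot be told apart.

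ENSBTAG00000018223 had 1050 FPKM in Mammary_gland, 1.86 in Mammary and 1.97 in Mammary_gland_fat, a log2 difference of -8.52. It was at 10 FPKM or more in 44 of the 91 libraries and reached 174 in Cancer_eye and 156 in Ureter. It was among the 3 genes restricted to Mammary_gland alone. ENSBTAG00000034372 had 249 FPKM in Mammary_gland, 91.1 in Mammary_gland_fat and was listed at 0 in Mammary, a log2 difference of -7.97. Its highest levels were 11887 FPKM in the library labelled prostrate, 8349 in the normal outer eye layer, 7719 in SalivaryGland and 5292 in Nasal_mucosa and its median over the 91 libraries was 0.180. The fifth most abundant gene of Mammary_gland had 9189 FPKM there and 166 in Mammary, and its highest level elsewhere was 5955 FPKM in Nasal_mucosa. It was singled out after its values were seen.

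Lymphoid and blood markers were far more abundant in Mammary_gland than in Mammary. This set rested on Lymph_nodes, mesenteric_lymph_node, Spleen and White_blood_cells. Of its 320 markers, 113 were at 10 FPKM or more in Mammary_gland, 11 in Mammary and 29 in Mammary_gland_fat. The 4 lymphoid and blood libraries had 288 to 301 and the rest a median of 23. The median marker had 5.95 FPKM in Mammary_gland, 0 in Mammary and 0.773 in Mammary_gland_fat. By that median, Mammary_gland ranked 8th and Mammary 82nd of 88 libraries, each set among the libraries outside the tissue. The place of Mammary is shared with any other library at 0. The markers summed to 0.814% of the FPKM in Mammary_gland and 0.0588% in Mammary, and 213 were listed at 0 in Mammary against 11 in Mammary_gland. Of the 114 that entered the comparison, 90 were at least 4-fold higher in Mammary_gland and 0 in Mammary, beside 24.3% and 5.4% of all genes compared. Most of the 114 entered through Mammary_gland, where 113 were at 10 FPKM or more, so this split largely follows from the filter. The other 206 were below 10 FPKM in both. For counts at 10 FPKM or more, the ratio of Mammary_gland to Mammary was 10.3 for these markers and 1.65 for all genes. In whole tissue, fewer immune cells, less RNA per immune cell and lower detection in Mammary cannot be told apart.

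More salivary markers were detected in Mammary_gland than in Mammary. Of all genes, 7605 were at 10 FPKM or more in Mammary_gland and 4599 in Mammary, a ratio of 1.65. Of 112 SalivaryGland markers, 35 were at 10 FPKM or more in Mammary_gland and 14 each in Mammary and Mammary_gland_fat. Of 65 markers of the library labelled prostrate, 27 were at that level in Mammary_gland, 15 in Mammary and 25 in Mammary_gland_fat. The ratio of Mammary_gland to Mammary was 2.5 for the salivary markers and 1.8, near that of all genes, for the latter set. On both sets Mammary_gland ranked 6th of 91 libraries by its median marker, and Mammary 66th and 64th. The median marker in Mammary was at 0 FPKM on both sets, so its places are shared with any other library at 0. The salivary markers summed to 2.96% of the FPKM in Mammary_gland and 2.50% in Mammary. In Mammary 1.20% came from 1 of the 9 shared mammary genes and 1.14% from another. In Mammary_gland the most abundant marker held 1.33%.

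Markers of fat and of skeletal muscle were low in both libraries. Of 40 markers of Sub_cutaneous_Fat and KPH_fat, 6 were at 10 FPKM or more in Mammary, 9 in Mammary_gland and 10 in Mammary_gland_fat, and their medians were 0, 1.87 and 0.974 FPKM against 111 in the fat libraries. The library labelled Mammary_gland_fat was far below the fat libraries on the median of these markers. Their summed share was 0.227% of its FPKM, against 0.0478% in Mammary_gland, 0.0737% in Mammary, a median of 0.0508% in libraries of other tissues and 1.56% to 1.71% in the fat libraries. Of 208 skeletal muscle markers, 23 were at that level in Mammary and 36 in Mammary_gland, with medians of 0.0550 and 1.19 FPKM against 155 in muscle. Of the 21 sets, pituitary and pineal, brain and oviduct had more markers at 10 FPKM or more in Mammary than in Mammary_gland, and the lower urinary tract and follicle had the same number in both.

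**Figure D5:**
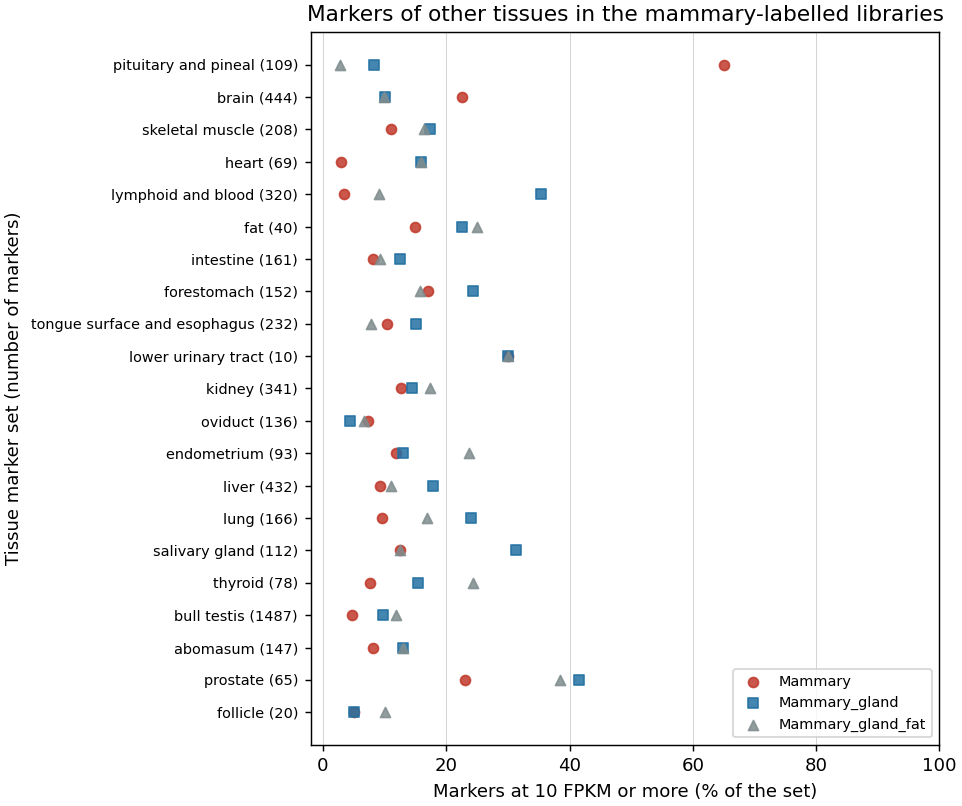
Share of the markers of 21 tissue sets that reached 10 FPKM or more in Mammary (circles), Mammary_gland (squares) and Mammary_gland_fat (triangles); the number of markers is in brackets. Mammary stands apart on pituitary and pineal markers (71 of 109, against 9 in Mammary_gland) and Mammary_gland on lymphoid and blood markers (113 of 320, against 11 in Mammary).

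Counted the same way as the pair above, Mammary_gland and Mammary_gland_fat were closer to each other than either was to Mammary. Between Mammary_gland and Mammary_gland_fat 10.7% of 8478 genes were at least 4-fold apart, 557 higher in the former and 350 in the latter, with a median log2 difference of -0.0039. Between Mammary and Mammary_gland_fat 30.2% of 7635 genes were, 495 and 1812, beside 29.7% for Mammary and Mammary_gland. These comparisons share libraries and use the deposited scaling, under which both pairs above with Mammary had a median log2 difference of -1.10. With the median ratio set to 1, 798 and 899 of 8080 genes were apart between Mammary and Mammary_gland. The other pairs are given on the deposited scaling only. Over the 18031 genes that reached 1 FPKM in at least 3 libraries, the rank correlation (Spearman's rho, across genes) of Mammary with Mammary_gland was 0.764. Mammary_gland ranked 12th in closeness to Mammary, behind Pineal_Gland (0.858), Posterior_pituitary (0.840), Anterior_pituitary (0.827) and SME_pituitary_stalk_median_eminence (0.822) in the leading places. Mammary and Pineal_Gland were at least 4-fold apart in 15.4% of 7640 genes. Mammary_gland was closest to Fornix_vagina (0.905) and Urethra (0.904), and differed from them at least 4-fold in 7.24% and 7.41% of genes. Among all other libraries, Mammary ranked 78th in closeness to Mammary_gland, and Mammary_gland_fat ranked 19th (0.863).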

How the data were processed

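The authors deposited 1 table of FPKM values for 24616 Ensembl gene identifiers and 94 libraries. Per the submitters' processing notes, HISAT2, StringTie and the genome build UMD3.1 were used. The tool versions and gene annotation were not given in the sources used here. Read depth is unknown, so no counting intervals are given.

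Libraries were taken by tissue label. Values were analysed as log2(FPKM + 1), which understates folds of low genes; genes with 10 FPKM or more in either library were compared, and a log2 difference of 2 or more (4-fold) was counted. The counting step was tested on simulated data with planted changes larger than the threshold. This checks the counting code, and not the scaling or the values listed at 0. Python 3.11.15, numpy 2.4.6, pandas 2.3.3 and matplotlib 3.10.9 were used. The members, sets and rules were chosen with earlier results of these data known. The 16 prepared lists of gene symbols, the milk protein list among them, could not be applied, because none of the file's identifiers matched the gene table provided. Named genes are the 2 identifiers with the largest difference in each direction. Restricted genes and tissue markers were added after the names proved missing. Alternatives were another pseudocount (0.1), filter, fold and scaling.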

Additional observations from a re-analysis of the deposited data

How the results depend on the processing

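With 1 library a label, the results below have no replicate check, and the depth that limits low genes is unknown. The milk protein share and its alternatives, other denominators among them, were not run, since no identifier had a name. Of the planned settings, the count of 436 genes higher in Mammary became 798 with the median ratio set to 1, 817 with quantile normalization and 251 at an 8-fold threshold. The count of 1963 genes higher in Mammary_gland became 899, 722 and 949 under these settings, 3542 with a minimum of 1 FPKM or no filter, 3449 with equal totals, and 1286 with equal totals without the 20 most abundant genes of each library. The cause of the changes was not tested, other than that the scaling shifts all differences (by 1.10 on the log2 scale for the median ratio). The directions of the 4 named identifiers were the same with a pseudocount of 0.1, equal totals, the median ratio and quantile normalization. Among settings chosen after seeing the data, the median difference of the compared pituitary and pineal markers ran from 4.67 to 7.24, of brain markers from 2.71 to 3.81, of lymphoid and blood markers from -4.25 to -2.45 and of salivary markers from -4.96 to -2.62. These medians cover only markers at 10 FPKM or more in either library, so their size partly follows from that filter. In the main setting all 71 compared pituitary and pineal markers reached it in Mammary. In Mammary_gland 113 of 114 lymphoid and blood markers and 35 of 38 salivary markers did. At 8-fold, 11 genes were restricted to Mammary and 10 to Mammary_gland.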
